A study of Mus musculus with 12 samples.

Results

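The 10 genes described here encode proteins that neutrophils make in bulk: S100a8 and S100a9 of the cytosol, Ltf, Camp, Lcn2 and Ngp of the specific granules, Mmp9 of the gelatinase granules, Mpo and Elane of the azurophil granules, and the chitinase-like Chil3. They were taken as every gene of that list with a probe set carrying its symbol alone, which gave 11 probe sets among 45037 and 10 genes among 18193. Mmp9 had 2 probe sets and the others 1 each, and 1 more probe set that names both Chil4 and Chil3 was left out. RNA of flow-sorted B cells from female C57BL/6 mice was measured on 12 Affymetrix arrays, 3 in each of 4 groups. These are age-associated B cells (ABC) of the spleen from mice older than 15 months, B1 cells of the peritoneal cavity from mice older than 15 months (old B1), follicular B cells (FO) of the spleen from mice older than 15 months, and B1 cells of the peritoneal cavity from mice aged 8 weeks (young B1). Sample titles call the peritoneal cells B1a. No genotype, transgene or treatment is given for any group. The labels name no sort markers and do not say whether an array is 1 mouse or a pool, so the spread between arrays, which is all that the p-values measure, may be technical.

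Neutrophils load their granules in waves while they mature in the bone marrow. Transcripts of azurophil proteins such as myeloperoxidase and elastase come early, those of specific granule proteins such as lactoferrin follow, and gelatinase comes later still. S100a8 and S100a9 pair to form calprotectin, the most abundant cytosolic protein of the neutrophil, and are also made by monocytes. B lymphocytes are not a known major source of any of these granule proteins.

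All 10 genes read highest on the ABC arrays. On each of them the lowest ABC array lay above the highest array of either other group of old mice. By limma, with adjusted p under 0.05 as the call, 7 of 10 were higher in ABC than in FO and 10 of 10 were higher in ABC than in old B1. Over all 18193 genes 7.12% were called higher in ABC than in FO and 7.4% higher in ABC than in old B1. Between groups without overlap, 15.2% of all genes lay higher in ABC than in FO and 17% higher in ABC than in old B1. The median log2 difference of the 10 genes was 3.87 for ABC against FO and 5.98 for ABC against old B1, beside -0.0335 and 0.0165 over all genes. The 3 ABC arrays serve in both comparisons. In these bulk samples a larger share of cells that carry the RNA and more RNA per cell cannot be told apart.

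**Figure D1:**
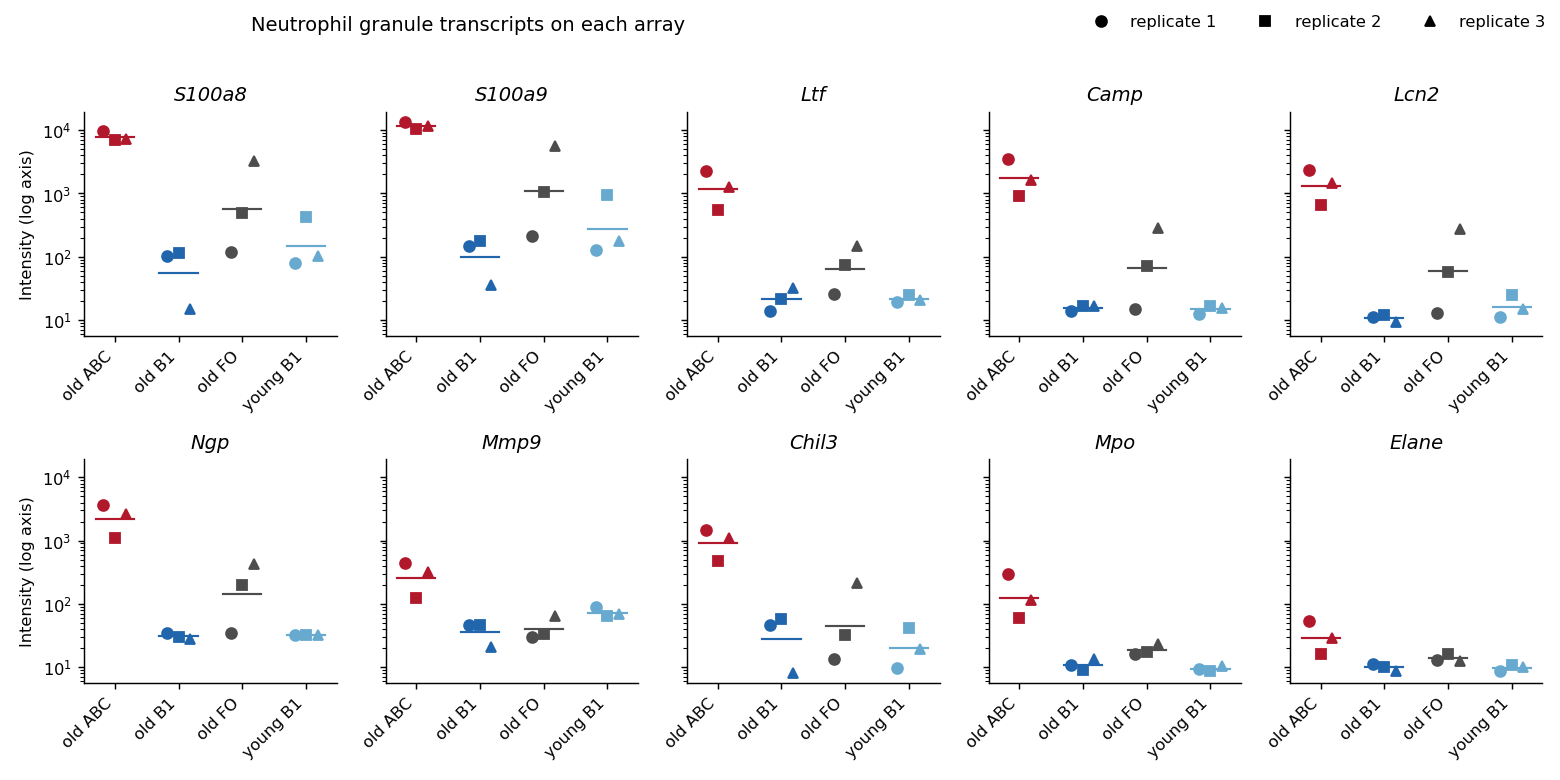
Intensity (log axis) of the 10 genes on each of the 12 arrays, grouped as old ABC, old B1, old FO and young B1; symbols mark the replicate and short lines the geometric mean of 3 arrays. The ABC arrays are the highest for every gene, and FO replicate 3 is the highest FO array for 9 of the 10.

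The B cell identity of the arrays was read from 11 genes. The summed intensity of these genes, in which Cd79a, Cd79b and Ms4a1 weigh heavily, ran from 76026 to 78096 on ABC, from 64744 to 66034 on old B1, from 73472 to 77551 on FO and from 63422 to 64643 on young B1 arrays. Single genes differed more. Pax5, the B lineage transcription factor, read 72.8, 75.4 and 110 on ABC, 42.4, 40.3 and 21.1 on old B1, 120.2, 51.1 and 86.9 on FO, and 61.1, 72.7 and 60.6 on young B1, so that it lay under the array medians on old B1. Cd72, a B cell coreceptor, was 11.1-fold higher in ABC than in old B1. The median intensity per array over all probe sets ran from 44.0 to 49.2. The 75th percentile was 346 on old B1 replicate 3 and 378 on FO replicate 2, against 400.1 to 412 on the other arrays. Without those 2 arrays, an alternative chosen after the data had been seen, 7 of the 10 genes were again called higher in ABC than in FO and 10 of 10 higher in ABC than in old B1.

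The 250 bases before the start sites of the 6 S100 and specific granule genes are shown so that the pattern counted over all windows can be seen in place. They come from RefSeq (GRCm38.p6) and run 5′ to 3′ on the strand of the gene. Capitals mark matches to TTNNGCAA on either strand, the core pattern bound by C/EBP factors, which drive granulocyte genes.

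S100a8 (chr3:90668821-90669070, plus strand): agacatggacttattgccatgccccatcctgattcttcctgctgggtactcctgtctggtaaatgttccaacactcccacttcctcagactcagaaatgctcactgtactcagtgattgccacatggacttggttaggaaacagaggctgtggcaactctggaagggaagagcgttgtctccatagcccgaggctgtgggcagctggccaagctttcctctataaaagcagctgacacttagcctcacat

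S100a9 (chr3:90695722-90695971, minus strand): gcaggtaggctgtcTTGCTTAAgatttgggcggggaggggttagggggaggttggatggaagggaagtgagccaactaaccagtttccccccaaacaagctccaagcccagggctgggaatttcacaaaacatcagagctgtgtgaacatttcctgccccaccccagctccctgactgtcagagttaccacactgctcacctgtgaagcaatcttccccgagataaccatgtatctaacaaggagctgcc

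Ltf (chr9:111019042-111019291, plus strand): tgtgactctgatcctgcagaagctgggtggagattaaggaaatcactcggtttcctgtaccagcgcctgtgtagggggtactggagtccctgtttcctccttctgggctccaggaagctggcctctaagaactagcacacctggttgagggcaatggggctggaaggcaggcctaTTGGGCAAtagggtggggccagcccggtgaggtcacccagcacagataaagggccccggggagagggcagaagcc

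Camp (chr9:109849457-109849706, minus strand): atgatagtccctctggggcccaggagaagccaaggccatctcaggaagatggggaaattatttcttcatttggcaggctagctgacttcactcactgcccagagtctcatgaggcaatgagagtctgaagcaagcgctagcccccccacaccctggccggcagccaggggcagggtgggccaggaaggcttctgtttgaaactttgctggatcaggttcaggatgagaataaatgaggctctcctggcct

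Lcn2 (chr2:32387740-32387989, minus strand): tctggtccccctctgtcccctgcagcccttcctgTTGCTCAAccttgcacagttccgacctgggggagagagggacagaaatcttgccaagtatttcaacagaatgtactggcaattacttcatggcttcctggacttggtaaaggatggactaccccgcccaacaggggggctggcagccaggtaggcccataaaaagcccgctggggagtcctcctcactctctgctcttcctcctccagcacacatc

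Ngp (chr9:110419558-110419807, plus strand): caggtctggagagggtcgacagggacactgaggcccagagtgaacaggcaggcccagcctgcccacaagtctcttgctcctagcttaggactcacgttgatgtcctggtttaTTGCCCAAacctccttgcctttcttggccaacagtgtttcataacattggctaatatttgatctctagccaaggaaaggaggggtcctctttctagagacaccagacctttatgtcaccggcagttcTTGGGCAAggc

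The pattern TTNNGCAA, searched on both strands, occurred in the windows of S100a9, Ltf, Lcn2 and Ngp, 4 of the 9 genes with a window, against 9.56% of 32851 windows of the same length over all genes. Ngp held 2 matches, at 138 and 11 bases before the start site. The match of Ltf began 75, that of Lcn2 216 and that of S100a9 236 bases before it. Camp, S100a8, Chil3, Mpo and Elane held none. The pattern GAGGAA, the core bound by ETS factors such as PU.1, occurred on either strand for S100a8, Ltf, Lcn2, Mpo and Elane, 5 of 9, against 23.3% of all windows. These matches describe letters and do not show binding. S100a8 and S100a9 are neighbours on chromosome 3 (90669071 to 90670034 and 90692630 to 90695721). Camp, Ngp and Ltf lie on chromosome 9, at 109847377 to 109849456, 110419808 to 110423012 and 111019292 to 111042766.

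S100a8 encodes a calcium-binding subunit of calprotectin. Its intensity was 9609, 6987 and 7405 on ABC arrays 1 to 3, 101, 115 and 14.7 on old B1, 118, 484 and 3234 on FO, and 78.3, 418 and 103 on young B1. S100a9, the partner subunit, read 13337, 10396 and 11764 on ABC, 148, 179 and 35.3 on old B1, 209, 1069 and 5564 on FO, and 125, 929 and 180 on young B1. The 3 ABC arrays were alike, while the FO arrays spread over 27.5-fold for S100a8 and 26.6-fold for S100a9. FO replicate 3 stood close below the ABC group, whose lowest array exceeded it 2.16-fold for S100a8 and 1.87-fold for S100a9. On the ABC arrays S100a9 lay above at least 99.5% of all probe sets.

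S100a8 was higher in ABC than in old B1 by 7.16 ± 1.15 (log2 difference ± SE of limma, n = 3 arrays a group, adjusted p = 0.00219), a 143-fold difference. S100a9 was higher there by 6.91 ± 1.12 (adjusted p = 0.00225). Against FO the differences were 3.80 ± 1.15 (adjusted p = 0.0686) for S100a8 and 3.45 ± 1.12 (adjusted p = 0.0884) for S100a9, and neither was called, although no ABC array overlapped an FO array. Without FO replicate 1 the differences were 2.66 (adjusted p = 0.216) for S100a8 and 2.27 (adjusted p = 0.263) for S100a9. Both were called without FO replicate 3, with 5.05 (adjusted p = 0.0147) for S100a8 and 4.64 (adjusted p = 0.0211) for S100a9. Without old B1 replicate 3, which enters only the shared spread of that comparison, both were also called (adjusted p = 0.0272 and 0.0490). Against old B1 without that array, S100a8 differed by 6.20 and S100a9 by 6.18. S100a8 read 14.7 on that array, under its 25th percentile of 15.1, so the 143-fold difference has no exact size.

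All 4 specific granule genes were called higher in ABC than in FO. Ltf, which encodes the iron-binding lactoferrin, read 2287, 556 and 1263 on ABC, 14.0, 21.0 and 31.6 on old B1, 25.2, 74.3 and 145 on FO, and 19.1, 25.1 and 20.4 on young B1. Camp, the cathelicidin antimicrobial peptide, read 3476, 903 and 1649 on ABC, 13.9, 16.6 and 16.5 on old B1, 14.7, 71.1 and 285 on FO, and 12.3, 16.6 and 15.5 on young B1. ABC replicate 1 was the highest and ABC replicate 2 the lowest of the ABC arrays for both, and FO replicate 1 lay within the range of the B1 arrays of both ages for Camp.

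Lcn2, or lipocalin 2, which binds bacterial siderophores, read 2321, 668 and 1485 on ABC, 11.3, 12.1 and 9.14 on old B1, 12.8, 57.6 and 274 on FO, and 11.0, 24.96 and 15.1 on young B1. Ngp, neutrophilic granule protein, a relative of the cathelicidins, read 3646, 1108 and 2590 on ABC, 34.8, 29.3 and 27.6 on old B1, 34.5, 196 and 422 on FO, and 31.5, 32.4 and 32.1 on young B1. The arrays took the same order for both genes within ABC and within FO.

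Against FO, Camp was higher in ABC by 4.69 ± 0.85 (25.9-fold, adjusted p = 0.00523) and Lcn2 by 4.49 ± 0.89 (22.5-fold, adjusted p = 0.00872). Ltf was higher by 4.18 ± 0.63 (18.1-fold, adjusted p = 0.0017) and Ngp by 3.95 ± 0.74 (15.4-fold, adjusted p = 0.0064). The size rests on which FO arrays are used. Without FO replicate 1 the differences were 3.60 for Camp, 3.39 for Lcn2, 3.49 for Ltf and 2.93 for Ngp. Without FO replicate 3 they were 5.74 for Camp, 5.61 for Lcn2 and 4.74 for Ngp. All 4 genes were called under each of the 24 alternatives.

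Against old B1, Camp was higher in ABC by 6.79 ± 0.85 (adjusted p = 4.9e-04), Ngp by 6.17 ± 0.74 (adjusted p = 3.8e-04) and Ltf by 5.80 ± 0.63 (adjusted p = 2.0e-04). Lcn2 lay under the 25th percentile of its array on all 3 old B1 arrays, so that its difference of 6.94 ± 0.89 (adjusted p = 5.5e-04) has no exact size. Set against that percentile in place of the dim reading, Lcn2 was at least 98.9-fold higher in ABC.

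Mmp9, the gelatinase of the tertiary granules, read 435, 123 and 314 on ABC, 46.8, 45.3 and 20.5 on old B1, 30.004, 33.3 and 65.0 on FO, and 88.5, 63.1 and 68.1 on young B1. It was higher in ABC than in FO by 2.67 ± 0.48 (6.37-fold, adjusted p = 0.00527) and than in old B1 by 2.86 ± 0.48 (7.28-fold, adjusted p = 0.00292). Its other probe set gave 1.95 against FO and 1.70 against old B1, in the same direction but smaller. All 3 old B1 arrays lay under the young B1 arrays, as for 7.75% of all genes, and the old minus young difference of -1.04 ± 0.48 was not called (adjusted p = 0.666). On the other probe set these groups overlapped, with 41.9, 63.1 and 17.2 on old B1 and 43.1, 49.8 and 43.9 on young B1.

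Chil3, also called Ym1, is made by neutrophil precursors and by alternatively activated macrophages. It read 1455, 470.3 and 1088 on ABC, 46.3, 58.1 and 7.98 on old B1, 13.3, 31.5 and 214 on FO, and 9.75, 41.5 and 19.4 on young B1. Its difference was 4.34 ± 1.05 for ABC against FO (20.2-fold, adjusted p = 0.0243) and 5.03 ± 1.05 for ABC against old B1 (adjusted p = 0.00949). Leaving out ABC replicate 1 raised the adjusted p against FO to 0.0898 and ended the call, as did leaving out ABC replicate 3 (0.0796). The same held when FO replicate 1 (0.0950) or FO replicate 2 (0.0798) was left out, and with the replicate number as a block (0.0561). Its value there was 3.46 without FO replicate 1 and 5.47 without FO replicate 3. Against old B1 it was 4.13 without old B1 replicate 3, the array of that group on which Chil3 lay under the 25th percentile.

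Mpo and Elane are the azurophil genes of the set. Mpo, the peroxidase that makes hypochlorous acid, read 299, 58.4 and 113 on ABC, 10.6, 8.94 and 13.5 on old B1, 15.8, 17.4 and 22.7 on FO, and 9.35, 8.53 and 10.3 on young B1. Elane, neutrophil elastase, read 53.4, 16.2 and 28.3 on ABC, 11.0, 9.80 and 8.75 on old B1, 12.9, 15.8 and 12.6 on FO, and 8.62, 10.7 and 9.91 on young B1. ABC replicate 1 was the highest of the 12 arrays for both genes, and the lowest ABC array exceeded the highest FO array for Elane only narrowly.

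Mpo was higher in ABC than in FO by 2.77 ± 0.46 (6.81-fold, adjusted p = 0.00292), and by 2.14 without ABC replicate 1. Elane differed by 1.09 ± 0.33 and was not called there (adjusted p = 0.0723), and it was called under 2 of 23 alternatives. It differed by 0.65 without ABC replicate 1, and by 1.51 (adjusted p = 0.00472) without ABC replicate 2. Against old B1, where all 3 arrays lay under their 25th percentile for both genes, Mpo was at least 9.40-fold higher (adjusted p = 5.8e-04) and Elane at least 2.18-fold higher (adjusted p = 0.0108). The Elane call was lost in a fit of these 2 groups alone (adjusted p = 0.103). Without ABC replicate 1 the fitted log2 difference of Mpo against old B1 was 2.91, against 3.53 with it.

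**Figure D2:**
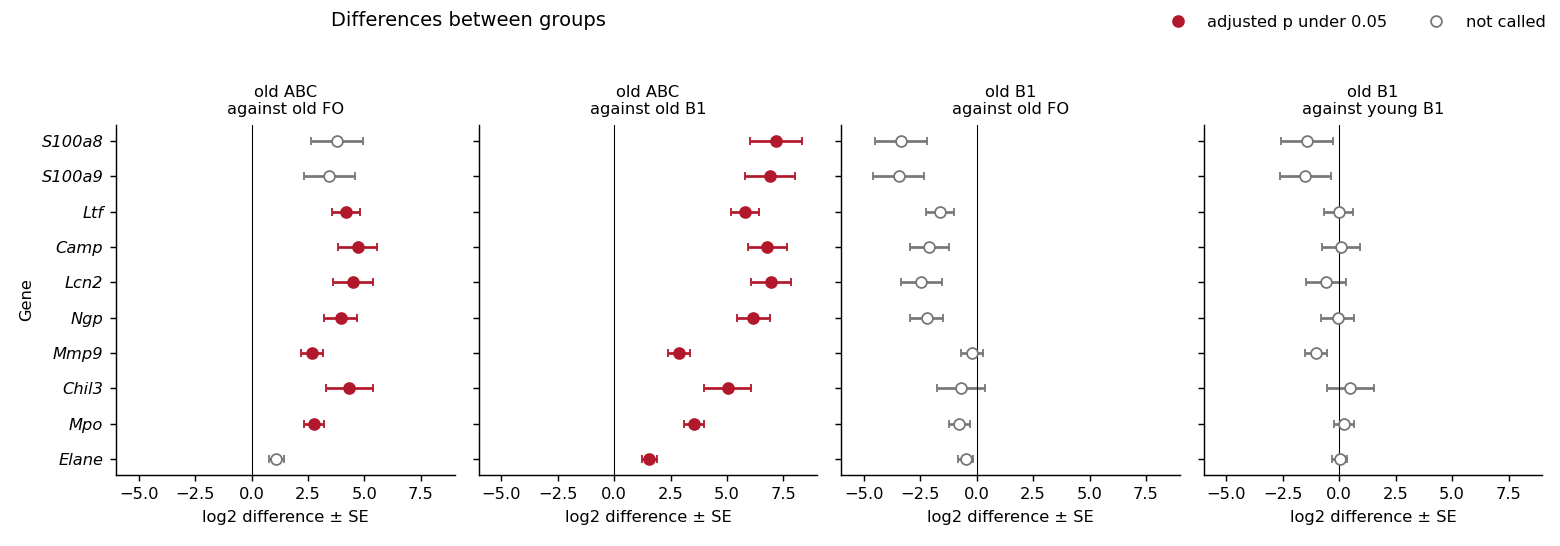
Log2 difference (± SE of limma) of the 10 genes in 4 comparisons; filled points passed an adjusted p under 0.05 and open points did not. All points of the ABC comparisons lie above 0, and no gene was called for old B1 against FO or against young B1.

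Old B1 against FO showed no called gene among the 10 (0 lower, 0 higher), beside 8.02% of all genes called lower and 8.4% called higher. All 10 differences were negative, 6 of them had an unadjusted p under 0.05, and the median was -1.86. S100a9 differed by -3.46 ± 1.12 (adjusted p = 0.0605), S100a8 by -3.36 ± 1.15 (adjusted p = 0.0763) and Ngp by -2.22 ± 0.74 (adjusted p = 0.0692). Lcn2, under the 25th percentile on all 3 old B1 arrays, has no exact difference there (adjusted p = 0.0935). For 5 of 10 every old B1 array lay under every FO array, beside 16.6% of all genes. These were S100a8, S100a9, Mpo, Elane and Lcn2. Mpo and Elane, like Lcn2, lay under the 25th percentile on all 3 old B1 arrays, so their order there says little. Without FO replicate 1, the FO array lowest in these transcripts, 6 genes were called lower in old B1 than in FO, namely S100a8, S100a9, Ltf, Camp, Lcn2 and Ngp, with differences from -4.64 to -2.30. Mmp9 (-0.19 ± 0.48) and Chil3 (-0.69 ± 1.05) showed the smallest difference relative to their error, and the sign of both turned under some alternatives.

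Old B1 against young B1, the only comparison of ages, showed 0 of 10 genes called by limma and 0 with an unadjusted p under 0.05, beside 0.291% of all genes called. The 10 differences had a median of -0.05, 4 of them positive. The widest were those of S100a9 (-1.49 ± 1.12, adjusted p = 0.716) and S100a8 (-1.43 ± 1.15, adjusted p = 0.726). On young B1 replicate 2 they read 7.42-fold and 5.33-fold higher than on replicate 1, and Chil3 read 4.26-fold and Lcn2 2.28-fold higher. Camp (1.35-fold) and Ngp (1.03-fold) hardly moved between the same 2 arrays. Camp lay near the 25th percentile of its array on these, and Chil3 and Lcn2 lay under it on replicate 1, so their ratios say little. On old B1 replicate 3, 1 of the 2 arrays that stand apart, S100a8, S100a9 and Chil3 read lowest of that group. S100a8 and Chil3 lay under the 25th percentile of that array, so how far they lay below the others is not exact.

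Within ABC and within FO the arrays took much the same order for most of the 10 genes. Within ABC, replicate 1 was the highest and replicate 2 the lowest for 10 of 10. Within FO, replicate 3 was the highest and replicate 1 the lowest for 9 of 10, with Elane as the exception. Within young B1, replicate 2 was the highest for 8 and replicate 1 the lowest for 8. Within old B1, replicate 3 was the lowest for 7, and replicates 1, 2 and 3 were the highest for 3, 5 and 2 genes. On the B1 arrays of both ages Mpo and Elane lay under the 25th percentile and Camp near it. Lcn2 lay under it on all 3 old B1 arrays, and Ngp spread only 1.03-fold within young B1. The order of the B1 arrays for these genes therefore says little.

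The size of the spread differed between genes. Among ABC arrays, replicate 1 exceeded replicate 2 by 3.09-fold to 5.12-fold for the 8 genes other than S100a8 (1.38-fold) and S100a9 (1.28-fold). Among FO arrays, replicate 3 exceeded replicate 1 by 27.5-fold for S100a8, 26.6-fold for S100a9, 21.5-fold for Lcn2, 19.3-fold for Camp, 16.1-fold for Chil3 and 12.2-fold for Ngp. The ratio was 5.77-fold for Ltf, 2.17-fold for Mmp9 and 1.43-fold for Mpo, and Elane read 0.982 times its level of replicate 1. On the FO arrays Elane lay under the 25th percentile on 2 of 3 and Mpo only a little above it, so that their ratios there say little. On FO replicate 1 Lcn2 (12.8), Camp (14.7) and Chil3 (13.3) read near its 25th percentile of 12.9, so their ratios have no exact size. As a percentage of the ABC mean of the same probe set, FO replicate 3 reached 47.0% for S100a9, 40.4% for S100a8, 38.7% for Elane, 22.4% for Mmp9, 21.3% for Chil3, 18.4% for Lcn2, 17.2% for Ngp, 14.5% for Mpo, 14.2% for Camp and 10.6% for Ltf.

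**Figure D3:**
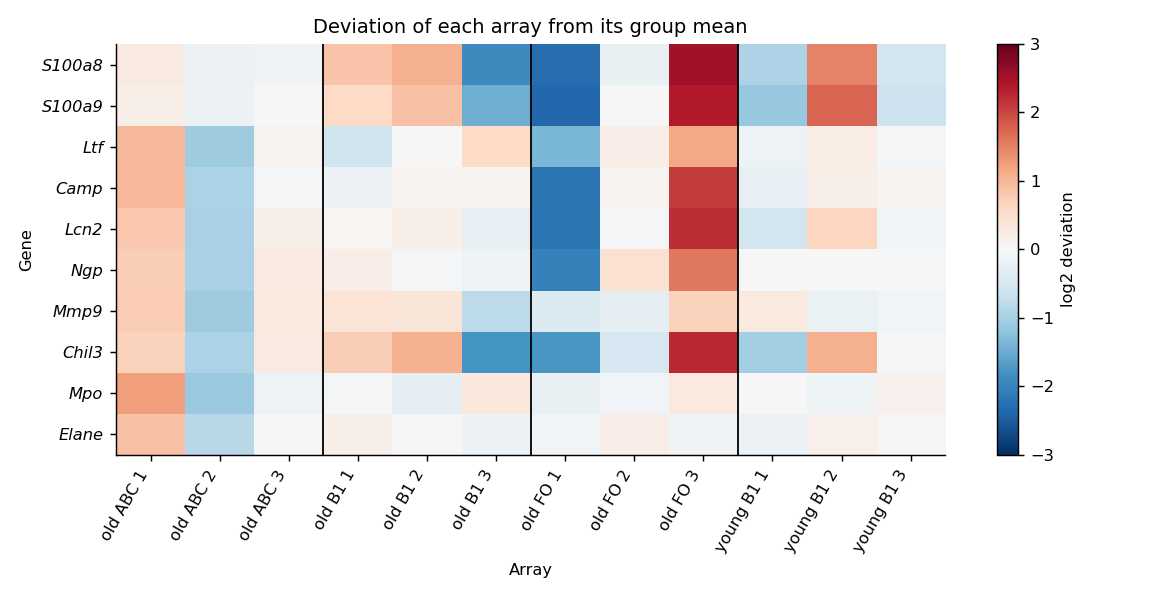
Log2 deviation of each array from the mean of its group, for the 10 genes (rows) and 12 arrays (columns). ABC replicate 1 and FO replicate 3 are high and ABC replicate 2 and FO replicate 1 are low for most genes, and young B1 replicate 2 is high for S100a8, S100a9 and Chil3.

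Correlations of these deviations are given as descriptions, without p, since the 12 arrays share group means and hold only 8 free deviations a gene. Over the 9 genes whose highest group mean reached the median of all probe sets (Elane did not), the 36 pairs had a median Pearson r of 0.719, from 0.0770 to 0.987. S100a8 with S100a9 gave 0.987, Camp with Lcn2 0.975 and Camp with Ngp 0.964, while Mpo with S100a9 gave 0.0770. Over the 6 splenic arrays alone the median was 0.901 and the lowest r was 0.286, that of Mpo with S100a9. Without the 3 FO arrays the median over 9 arrays was 0.615, S100a8 with S100a9 gave 0.976 and Camp with Ngp 0.883. S100a8 with Camp gave 0.169 there in place of 0.720. On the B1 arrays of both ages Camp lay near the 25th percentile of its array and Mpo under it. Their low r with S100a8 or S100a9 over sets with B1 arrays therefore says little. For Mpo the r stayed low over the splenic arrays too, where its FO readings lay only a little above that percentile. With the mean profile of these 9 genes, the deviations of all other genes had a median r of -0.00514, and 0.492 at their 95th percentile.

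Other genes of neutrophils were taken from 4 further lists. Over all genes 7.12% were called higher in ABC than in FO. Of 12 other specific and gelatinase granule genes 8 were higher in ABC than in FO, 0 lower and 4 not called. They included Cd177, a surface protein of neutrophils (3.63 ± 0.68, adjusted p = 0.00638), Chil1, a chitinase-like protein (1.32 ± 0.26, adjusted p = 0.00871), Hp, haptoglobin (2.72 ± 0.49, adjusted p = 0.00516), and Cybb, an oxidase subunit that B cells also express (0.74 ± 0.13, adjusted p = 0.00501). Cd177 read 381, 72.3 and 225 on ABC, 39.2, 37.9 and 11.1 on old B1, 8.59, 12.9 and 29.6 on FO, and 16.6, 11.8 and 20.7 on young B1, so its ABC and FO arrays took the same order as those of Camp. Of 5 other azurophil genes 2 were higher in ABC than in FO, Ctsg, or cathepsin G (2.54 ± 0.59, adjusted p = 0.0201), and Ms4a3 (1.89 ± 0.47, adjusted p = 0.0275). Serpinb1a, an inhibitor of elastase, was lower (-1.30 ± 0.23, adjusted p = 0.00437), as were 2.84% of all genes, and 2 were not called.

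Of 11 measured genes of mature neutrophils 4 were higher in ABC than in FO, 0 lower and 7 not called. The share called higher over all genes was 7.12%. Padi4, which citrullinates histones (2.70 ± 0.40, adjusted p = 0.00163), and Fpr2, a formyl peptide receptor (3.70 ± 0.76, adjusted p = 0.0102), were among the 4. Csf3r and Cxcr2 are defining receptors of mature neutrophils. Csf3r, the receptor of G-CSF, read 32.9, 25.1 and 43.3 on ABC, 45.1, 42.7 and 22.95 on old B1, 14.2, 11.96 and 27.6 on FO, and 20.5, 26.1 and 36.3 on young B1 (0.98 ± 0.37 for ABC against FO, adjusted p = 0.151). Cxcr2, the chemokine receptor, lay between 4.91 and 11.8 on all 12 arrays, under the 25th percentile of each. Of 5 granulocyte transcription factors 2 were higher, Cebpd (1.89 ± 0.17, adjusted p = 5.1e-05) and Cebpa (2.36 ± 0.48, adjusted p = 0.0101). Spi1, or PU.1, which B cells also use, did not pass (-0.10 ± 0.11, adjusted p = 0.724).

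The same lists were read for ABC against old B1, and whether they differ from their values against FO was not tested. Among 33 measured genes of the 4 lists, 12 were called higher in ABC and 20 were not called, with a median log2 difference of 0.71. Over all genes 7.4% were called higher there. The gene called lower, beside 5.43% of all genes, was Padi4 (-1.57 ± 0.40, adjusted p = 0.0278). Against FO 16 were higher, beside 7.12% of all genes, 1 lower and 16 not called, with a median of 1.48. Prtn3, or proteinase 3, read 195, 49.02 and 89.97 on ABC, 306, 349 and 36.4 on old B1, 22.3, 15.96 and 18.9 on FO, and 82.6, 109 and 198 on young B1, unlike its granule partner Mpo. Old B1 against young B1 had 0 of the 33 called, beside 0.291% of all genes.

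Markers of macrophages, eosinophils, basophils and mast cells also differed between these groups. Of 18 macrophage and monocyte markers 13 were higher in ABC than in FO, 0 lower and 5 not called. For ABC against FO 7.12% of all genes were called higher. The 13 included Mrc1, the mannose receptor (3.32 ± 0.31, adjusted p = 6.9e-05), and Adgre1, or F4/80 (4.27 ± 0.40, adjusted p = 7.9e-05). The summed intensity of the 18 ran from 19131 to 23460 on ABC, from 13892 to 33829 on old B1, from 1833 to 3681 on FO and from 17162 to 29772 on young B1. The summed intensity of the 10 neutrophil granule genes ran from 21286 to 36919 on ABC, from 186 to 495 on old B1, from 486 to 10238 on FO and from 394 to 1570 on young B1. S100a8 and S100a9 make up most of that sum on ABC arrays. The 12 other specific and gelatinase granule genes were summed too, with Cyba, Slpi, Cybb and Pglyrp1 weighing heavily. Their sum ran from 21711 to 25175 on ABC, from 12068 to 21965 on old B1, from 13460 to 16528 on FO and from 15033 to 16838 on young B1. Its ABC and old B1 ranges overlapped. Of the 18 macrophage and monocyte markers, 16 were called higher in old B1 than in FO, 0 lower and 2 not called. Over all genes 8.4% were called higher there. Vsig4 read 969, 999 and 88.3 on old B1 and 11.3, 9.91 and 10.2 on FO. Timd4 read 334, 275 and 65.0 on old B1 and 19.1, 34.0 and 25.1 on FO. Gata6, which marks large peritoneal macrophages, was 1 of the 2 not called and read between 14.3 and 27.9 on all 12 arrays. Of 5 eosinophil and basophil markers 4 were higher in ABC than in FO, among them Prg2, a granule protein of eosinophils (2.70 ± 0.53, adjusted p = 0.00792), and Mcpt8, a basophil protease (3.42 ± 0.54, adjusted p = 0.00214). Of 9 mast cell markers 3 were higher in ABC than in FO, with sums from 442 to 1216 on ABC, from 2054 to 5025 on old B1, from 192 to 210.2 on FO and from 2321 to 10179 on young B1. For ABC against FO, 3 of 8 T and NK cell and 2 of 6 dendritic cell markers were also higher and 0 lower. Of 5 erythroid and platelet markers 1 was higher and 0 lower, too few to set apart from the 7.12% over all genes. Macrophage sums were highest on ABC replicate 1 and lowest on ABC replicate 2, although Adgre1 itself was highest on ABC replicate 2. The T and NK cell, dendritic cell, and eosinophil and basophil sums had the same highest and lowest ABC arrays. Sums of the other lists did not. The mature neutrophil sum was highest on ABC replicate 3 and lowest on replicate 2. The other azurophil and the other specific and gelatinase granule sums were highest on ABC replicate 2 and lowest on replicate 3. Sums of the granulocyte transcription factors, mast cell, and erythroid and platelet markers were lowest on ABC replicate 3. Within FO the macrophage sum was highest on replicate 3 and lowest on replicate 1, as for most granule genes. The place of FO replicate 3 above replicate 2 rests on Lyz2, also a lysozyme of neutrophils (261, 383 and 1047 on FO). Apoe was highest on FO replicate 2 (618, 1426 and 490 on FO). The T and NK cell, dendritic cell, and eosinophil and basophil sums were also highest on FO replicate 2 and lowest on replicate 1. The erythroid and platelet and the other azurophil sums were highest on FO replicate 3 and lowest on replicate 1. The mature neutrophil sum was highest on FO replicate 3 and lowest on replicate 2. The part of other cells in the levels of the 10 genes was not tested.

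**Figure D4:**
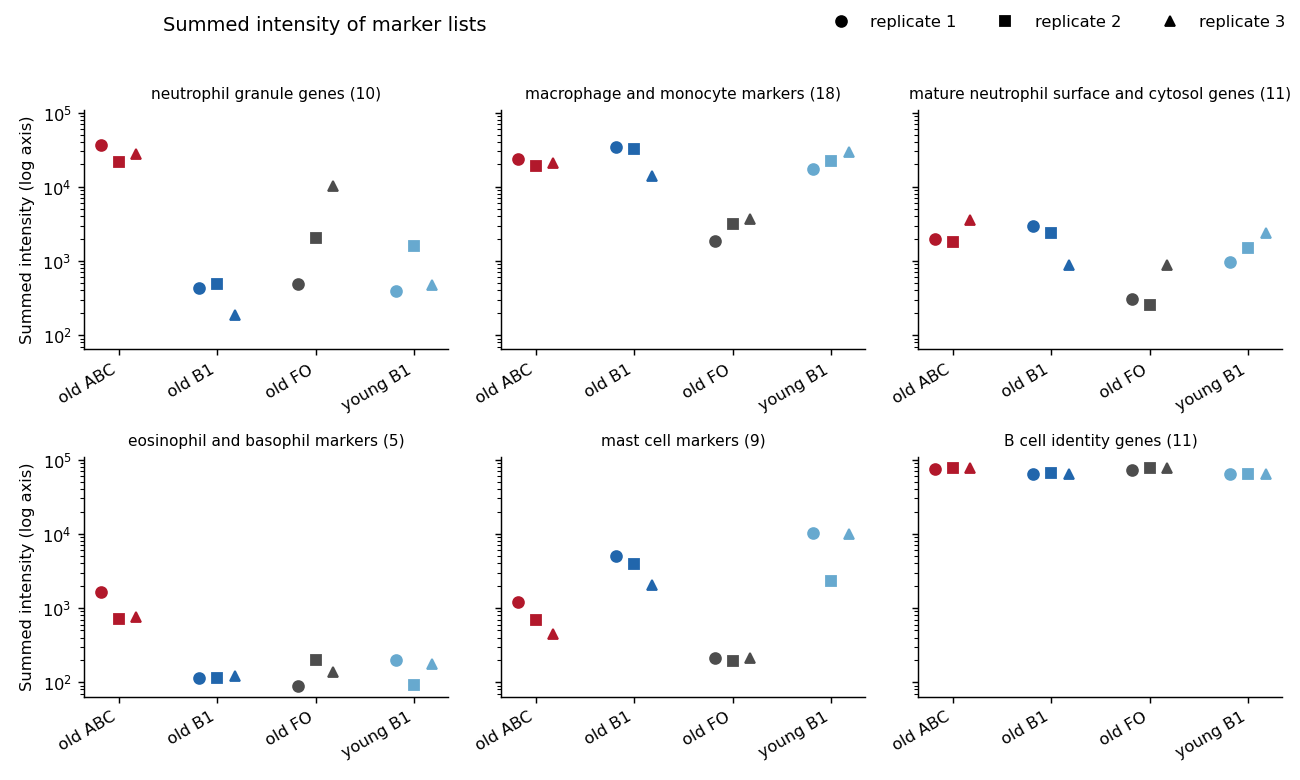
Summed intensity (log axis) of the 10 neutrophil granule genes and of 5 marker lists on each of the 12 arrays; the number of genes summed stands in each title. The granule genes are highest on ABC arrays, macrophage markers are high on ABC and both B1 groups, and B cell identity genes are near 63422 to 78096 throughout.

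The genes most like the 9 in level over the 12 arrays were Prg3, an eosinophil granule protein (r = 0.966), Il1r2, a decoy receptor of interleukin 1 (0.963), Asb2 (0.960), Slc40a1, the iron exporter ferroportin (0.960), Pla2g2d, a secreted phospholipase (0.956), Fhl1 (0.956), Tubb1, a tubulin of platelets (0.955), and Tgm2, a transglutaminase (0.953). Slc40a1 read 1124, 987 and 932 on ABC, 22.9, 25.1 and 34.5 on old B1, 63.2, 99.6 and 175 on FO, and 24.9, 29.2 and 24.0 on young B1. Its FO arrays followed the order of Camp and Lcn2, and its ABC arrays did not.

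By deviations from the group means the closest genes were Ovca2 (r = 0.954), Scn4b, a sodium channel subunit (0.934), and Lyz1, a lysozyme (0.911). Next came Lyz2, the lysozyme of neutrophils and macrophages (0.893), Lpin3 (0.885), Il1r2 (0.872), Tubb1 (0.866) and Ifitm10 (0.865). Il1r2 and Tubb1 stood in both lists. Lyz2 read 5460, 3163 and 4923 on ABC, 11692, 11121 and 4992 on old B1, 261, 383 and 1047 on FO, and 7467, 9259 and 10214 on young B1. Lyz1 and Lyz2 are near-identical copies, and their probe sets may share signal. The mean of Ovca2 was 207 on ABC, 203 on old B1, 203 on FO and 281 on young B1.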

How the data were processed

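Intensities of 45037 probe sets on 12 arrays were taken from the table deposited by the authors, on a linear scale. RMA and affy are named in the submitters' processing notes; their versions and settings were not given in the sources read. The log2 was taken before testing, and for each gene the probe set of highest mean was kept among the 34945 with 1 symbol (932 carried several, 9160 none), leaving 18193 genes without a filter on dim signals. Promoter letters and gene positions came from RefSeq tables of GRCm38.p6, which held windows for 9 of the 10 genes.

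All arrays entered 1 fit of 4 group means in limma 3.58.1 (R 4.3.3; 8 residual degrees of freedom, prior 2.37), with Benjamini-Hochberg adjustment over all genes of a comparison. The fit was tested on simulated data. A gene under its array's 25th percentile on every array of a group was taken as dim there, and its fold given as a bound against that percentile. The number of arrays limits the precision.

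The 10 genes and the marker lists were chosen with earlier results of these data known. Named are all 10, up to 4 genes a list with the lowest p or defining markers, and the 8 genes most like them by each of 2 measures. Genes of the lists that were not in the table under 1 symbol were not analysed here. Alternatives were the replicate block, other limma settings, array weights, 2-group fits, cyclic loess, centring, a brightness filter, other probe set rules, a floor and each array left out. Added after the data had been seen were the 75th percentile as a covariate and leaving out the 2 arrays that stand apart. Plots were made in Python 3.11.15 (matplotlib 3.10.9).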

Additional observations from a re-analysis of the deposited data

How the results depend on the processing

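No called difference of the 10 genes reversed under any of the 24 alternatives. Of 956 recomputed differences 929 kept their side of the threshold, 21 gained a call and 6 lost it, and 19 changed sign without being called either way. Same-numbered arrays did not deviate together (r from -0.391 to 0.228, with 2 of 12 pairs over 0.1), so the replicate numbers were not taken as pairs. The replicate block left 6 of the 10 genes called for ABC against FO in place of 7 (Chil3, adjusted p = 0.0561) and 10 for ABC against old B1. Leaving out each array in turn gave 6 to 9 of the 10 called for ABC against FO, 10 for ABC against old B1, 0 to 6 for old B1 against FO (6 without FO replicate 1) and 0 for old B1 against young B1. A fit of the 2 groups alone and the filter on bright genes, which leaves out Elane, each called 9 for ABC against old B1. For old B1 against FO, array weights called 6 of the 10 lower in old B1 and a filter on bright genes 2, in place of 0.

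Counts over all genes moved more. For ABC against FO 1812 genes were called; it was 3961 with array weights, 2964 without the 2 arrays that stand apart, 2748 with the 75th percentile as a covariate, and 1267 to 2837 with an array left out (the highest without old B1 replicate 3). For ABC against old B1 it was 2334, against 3592 with array weights, 1062 in a fit of the 2 groups alone and 1609 to 2738 with an array left out. For old B1 against FO it was 2988, against 5001 with array weights, 1455 in the fit of 2 groups and 2098 to 3555 with an array left out. For old B1 against young B1 it was 53, against 32 with the replicate block, 316 with array weights, 2 in the fit of 2 groups, 208 without the 2 arrays that stand apart, 80 with the covariate and 17 to 165 with an array left out (165 without old B1 replicate 3, and 17, 20 and 20 without young B1 replicates 1, 2 and 3). The cause was not tested. Signal near the lower end of the scale limits Mpo and Elane on B1 and FO arrays and Lcn2 and Camp on B1 arrays. It also limits Lcn2, Camp and Chil3 on FO replicate 1, S100a8 and Chil3 on old B1 replicate 3, and Chil3 on young B1 replicate 1.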
